A study of Mus musculus with 9 samples.

Results

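Scavenger receptors and pattern uptake lectins are the surface and endosomal proteins with which a macrophage binds and takes in modified lipoproteins, haemoglobin complexes, dying cells and microbes. The group described here is 10 mouse genes taken by symbol from the deposited table of 15343 genes: Msr1, Marco, Scarb1, Olr1, Cd163, Mrc1, Stab1, Cd68, Clec7a and Clec4e. All 10 were found, and all 10 were among the 13895 genes that reached a normalized count of 10 in 3 or more libraries. The rule takes genes by symbol and uses no measured value.

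RNA-seq was made from primary macrophages of the mouse peritoneum, marked WT, with the strain written CF7B1/6 and no age given. Every library had lipopolysaccharide (LPS, a cell wall component of Gram-negative bacteria sensed by TLR4) at 100 ng/ml for 6 h, so all 3 groups share the stimulus and no unstimulated macrophages were analysed here. The LPS group has no pretreatment in its labels. The DHA group had docosahexaenoic acid, an omega-3 fatty acid, at 100 µM for 1 h before LPS, and the cpdA group had the compound named cpdA, an agonist of the omega-3 receptor Gpr120 (gene Ffar4), at 10 µM for 1 h before LPS. The doses of both agents differ, and the LPS labels name no vehicle, so each comparison with LPS covers the whole pretreatment step. Each group had 3 libraries, and the labels do not say whether they came from separate animals or cultures, so p-values measure the spread between these libraries, which may be technical.

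Values are normalized counts, that is, reads divided by 1 size factor for each library, and the reads behind them numbered from 13797079 (DHA 1) to 37572822 (cpdA 2). Where values are listed for a group, they stand in the order of its libraries 1, 2 and 3. In a principal component analysis of all genes kept, component 1 (40.5% of the variance) set cpdA 3 apart and component 2 (28.8%) set LPS 3 apart. Against the mean of LPS 1 and 2, 8.10% of genes lay at least 1 log2 unit lower in cpdA 3 and 3.15% in LPS 3. At least 1 log2 unit higher were 8.36% in cpdA 3 and 4.94% in LPS 3. In DHA 2, which was kept in every main result, the shares were 1.77% lower and 4.62% higher. A list of 12 LPS response genes summed to between 647675 and 1009503 in 7 libraries, to 552244 in LPS 3 and to 127231 in cpdA 3. The 4 nuclear RNAs found of 13 nuclear and mitochondrial entries summed to 53772 in cpdA 3, against 12257 to 23354 in the other 8 libraries. Most of that sum was Neat1, at 46514 in cpdA 3 and 7382 to 15888 elsewhere. Malat1 was 4342 in cpdA 3 against 3964 in cpdA 2, and Kcnq1ot1 was 2744 in cpdA 3, below the 5155 of LPS 3. All 13 macrophage markers were detected in every library, at levels that differed widely. Emr1 (F4/80) ran from 29157 to 43351 and Lyz2 (lysozyme) from 210386 to 459826, the latter lowest in LPS 3 and cpdA 3. Markers of resident peritoneal macrophages were lower, with Gata6 from 183 to 406, Timd4 from 25.4 to 203 and Icam2 from 40.1 to 72.6, and Aif1 ran from 185 to 327. The 13 macrophage markers together summed to 337061 in LPS 3, to 399909 in cpdA 3 and to between 611603 and 641542 in the other 7 libraries. The 12 markers of mesothelium, fibroblasts and endothelium, led by the collagen gene Col1a2, summed to 49933 in LPS 3 and to between 28923 and 37406 elsewhere. The 9 B cell markers, all found, summed to between 1211 and 1671. For T and NK cells 4 of 9 markers were found and summed to between 107 and 467, highest in LPS 3 and lowest in cpdA 3. That order was set by Lck, at 415 in LPS 3 and 55.2 in cpdA 3. Cd4 was lowest in LPS 3 (16.4), and Cd8a was 29.7 in LPS 3 and 27.2 in cpdA 3. For neutrophils 4 of 10 summed to between 143 and 508, and for mast cells, basophils and eosinophils 7 of 11 summed to between 257 and 460. The 10 of 11 monocyte and dendritic cell markers found, led by Itgax, summed to 23070 in LPS 3, 28574 in cpdA 3 and 41530 to 49455 elsewhere. No list gene found in the table was at 0 in every library. The part of these shifts in the results was not tested, and in bulk RNA fewer cells of a type and less RNA per cell cannot be told apart. Results are therefore given over all 9 libraries and for the 7 libraries other than LPS 3 and cpdA 3.

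Scavenger receptors share ligands rather than ancestry: they bind polyanionic surfaces such as oxidized lipoproteins, apoptotic membranes and bacterial walls, and carry them to endosomes. The C-type lectin receptors add recognition of sugars and glycolipids, and Clec7a (Dectin-1) and Clec4e (Mincle) also signal through the kinase Syk. In peritoneal macrophages many of these receptors are part of the resting uptake programme, while others, Clec4e among them, are known to be induced by LPS.

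The class A collagenous receptors were the only place in the group where a treated group and the LPS group did not overlap over all 9 libraries. Msr1, which takes up acetylated and oxidized LDL, measured 25696, 25662 and 29429 across the LPS libraries, 21891, 18713 and 22814 across the DHA libraries, and 20797, 23580 and 16667 across the cpdA libraries. All 6 pretreated libraries lay below all 3 LPS libraries. Means were 26929 ± 2165 in LPS, 21139 ± 2152 in DHA and 20348 ± 3478 in cpdA (SD, n = 3 each). On the log2(value + 1) scale the difference was -0.35 (SE 0.163) for DHA and -0.42 (SE 0.163) for cpdA, and limma's adjusted p was 0.368 and 0.295. Neither difference passed the threshold of 0.05. Over 20 alternative settings the DHA difference ran from -0.41 to -0.20 (adjusted p 0.118 to 0.743) and the cpdA difference from -0.53 to -0.20 (adjusted p 0.120 to 0.561). Non-overlap with DHA lower was seen in 15.0% of genes kept, and with DHA higher in 13.0%. For cpdA these shares were 12.2% lower and 10.7% higher, so 1 of 10 members in each comparison is near the background. For cpdA against DHA the shares were 2.61% lower and 3.04% higher, and no member was in either.

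Marco, the other collagenous receptor, binds bacteria and particles. Its normalized counts were 2138, 2238 and 803 across the LPS libraries, 1982, 1500 and 1616 across the DHA libraries, and 2038, 1951 and 2589 across the cpdA libraries. LPS 3 was the lowest of all 9 libraries and cpdA 3 the highest, so the library that stood apart in each group moved Marco in opposite directions. Over all libraries the log2 differences were 0.11 for DHA (limma adjusted p = 0.912) and 0.47 for cpdA (adjusted p = 0.556). With 7 libraries they were -0.37 (SE 0.108, limma adjusted p = 0.0612) and -0.13 (limma adjusted p = 0.762). Over all alternatives the DHA value had an adjusted p of 0.0612 to 0.995, and the cpdA value one of 0.449 to 0.986.

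**Figure D1:**
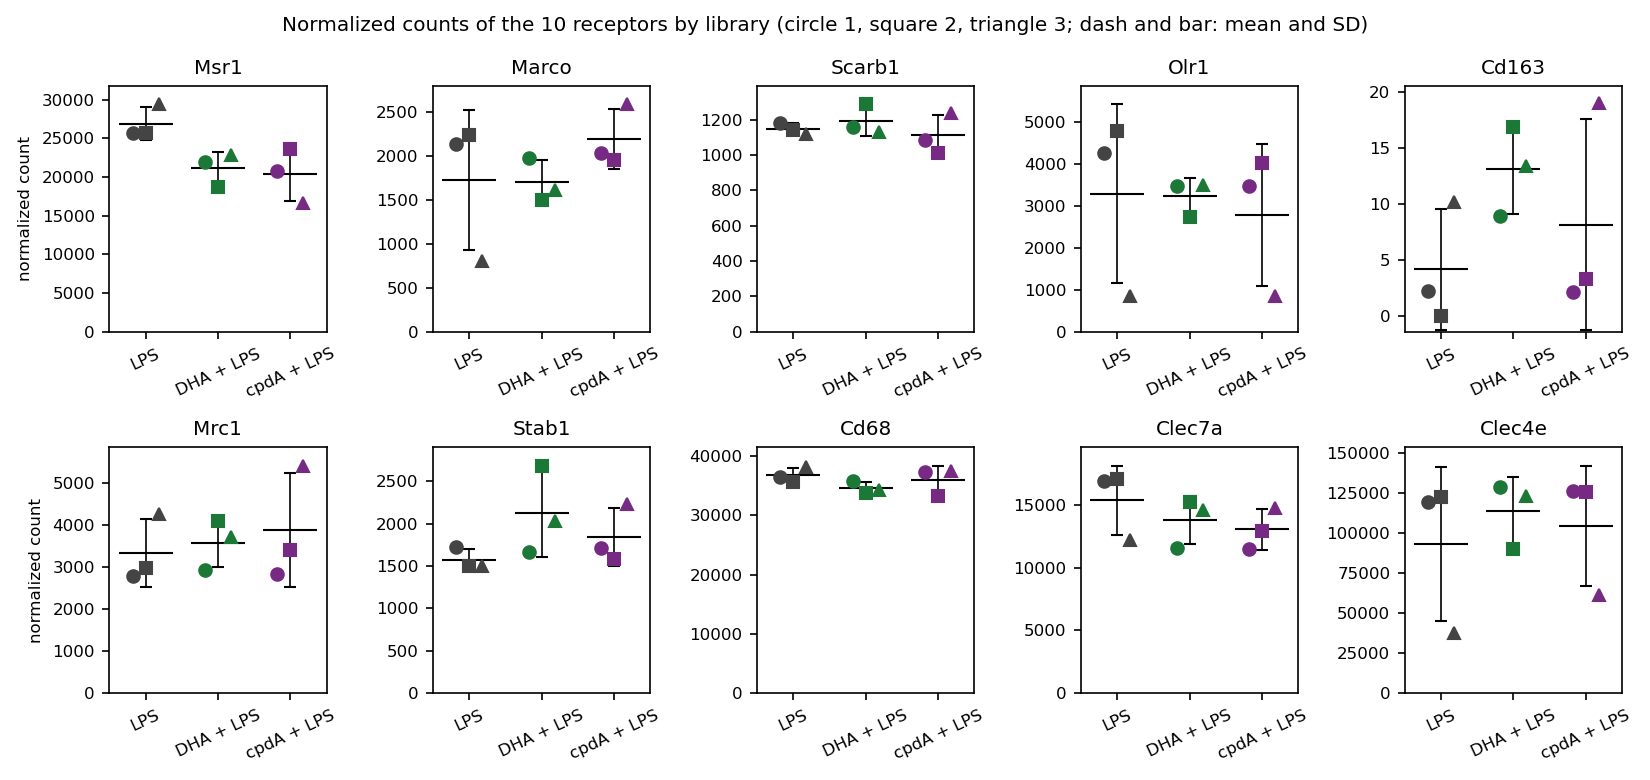
Normalized counts (y axes, linear, each panel on its own scale) of the 10 receptors in 9 libraries, with LPS, DHA + LPS and cpdA + LPS along the x axes; markers give the library number, dashes the mean and bars the SD of 3 libraries. Msr1 lies lower in all 6 pretreated libraries, from 16667 to 23580, than in LPS, from 25662 to 29429, while LPS 3 stands low for Marco, Olr1 and Clec4e.

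Scarb1 and Cd68 differed least between libraries. Scarb1 (SR-BI), which exchanges cholesterol with HDL, measured 1147 ± 32.7 in LPS, 1192 ± 84.1 in DHA and 1111 ± 115 in cpdA (SD, n = 3 each). Its libraries ranged from 1013 in cpdA 2 to 1288 in DHA 2, with all 3 groups overlapping. Cd68, a heavily glycosylated protein of late endosomes and lysosomes that is widely used as a macrophage marker, measured 36721 ± 1260 in LPS, 34550 ± 1076 in DHA and 36006 ± 2342 in cpdA (SD, n = 3 each). Its lowest library was cpdA 2 at 33306 and its highest LPS 3 at 38110. The SD of log2 values over all 9 libraries was 0.07 for Cd68, lower than in all but 2.0% of genes kept, and 0.102 for Scarb1, lower than in all but 9.2%. The 95% intervals from limma bounded the differences of Cd68 between -0.37 and 0.20 log2 units for DHA, and between -0.32 and 0.26 for cpdA. For Scarb1 they ran from -0.16 to 0.27 for DHA and from -0.27 to 0.17 for cpdA.

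Olr1 (LOX-1), a lectin-like receptor for oxidized LDL, varied far more. It measured 4246, 4771 and 850 across the LPS libraries, 3462, 2734 and 3502 across the DHA libraries, and 3474, 4005 and 843 across the cpdA libraries. LPS 3 and cpdA 3 were lowest by a wide margin, at -2.40 and -2.42 log2 units relative to the mean of LPS 1 and 2, and the other 7 libraries ran from 2734 to 4771. Over all libraries the DHA difference was 0.31 (SE 0.726, limma adjusted p = 0.870) and the cpdA difference -0.18 (SE 0.726, adjusted p = 0.932). Without LPS 3 and cpdA 3, Olr1 fell in the DHA group, by 0.49 on the log2 scale (SE 0.118, limma adjusted p = 0.0316). The cpdA difference in that fit was -0.27 (SE 0.129, adjusted p = 0.454). The DHA call was seen only with both libraries left out. The value was the same -0.49 without LPS 3 alone (adjusted p = 0.810), and 0.31 without cpdA 3 alone (adjusted p = 0.799), and the 850 of LPS 3 lies below every DHA library. Over all 20 alternatives the adjusted p for DHA ran from 0.0316 to 0.994. That of the cpdA difference ran from 0.454 to 0.952.

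Cd163, the receptor for haptoglobin-bound haemoglobin, was near the detection limit. Its normalized counts were 2.2, 0.0 and 10.2 across the LPS libraries, 8.9, 16.9 and 13.4 across the DHA libraries, and 2.1, 3.3 and 19.0 across the cpdA libraries. The highest Cd163 value was that of cpdA 3, and LPS 3 lay inside the DHA range. These values rest on 2, 0 and 10 reads in LPS, 4, 15 and 12 in DHA, and 2, 4 and 21 in cpdA. The count of 0 in LPS 2 allows up to 3 reads, or 3.46 normalized, for counting error only. Over all libraries the DHA difference was 2.05 (SE 0.940, limma adjusted p = 0.363) and the cpdA difference 0.96 (adjusted p = 0.669). Their size depended on the setting, from 0.87 with a pseudocount of 8 to 2.93 without LPS 3 for DHA, and from 0.10 without LPS 2 to 1.85 without LPS 3 for cpdA. Without LPS 2 the DHA difference was 1.19, and without cpdA 3 the cpdA difference was 0.15. Without LPS 3 and cpdA 3, Cd163 rose in the DHA group, by 2.93 (SE 0.673, limma adjusted p = 0.0254), and the range over all alternatives was 0.0254 to 0.711. This call too was seen only with both libraries left out (adjusted p = 0.460 without LPS 3 alone and 0.170 without cpdA 3 alone). Cd163 reached the filter value of 10 only in LPS 3, DHA 2, DHA 3 and cpdA 3. The filter was set over all 9 libraries, and without LPS 3 and cpdA 3 Cd163 would not pass it. By reads, the 3 DHA libraries had 31 against 2 in LPS 1 and 2, a ratio of 12.4 after scaling by the size factors (95% interval 3.16 to 107). With LPS 3 included the comparison was 31 against 12 reads, with a ratio of 3.20 (1.60 to 6.84). Both intervals cover counting error only.

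Mrc1 and Stab1 are clearance receptors of alternatively activated and resident macrophages. Mrc1, the mannose receptor, measured 2782, 2969 and 4251 across the LPS libraries, 2934, 4090 and 3722 across the DHA libraries, and 2830, 3414 and 5407 across the cpdA libraries. The order was set within groups: LPS 3 and cpdA 3 were the highest of all 9 libraries, at 0.56 and 0.91 log2 units above the mean of LPS 1 and 2. The limma differences were 0.12 for DHA (adjusted p = 0.864) and 0.19 for cpdA (adjusted p = 0.764). With 7 libraries they were 0.30 and 0.11, with an adjusted p of 0.199 and 0.854. Stab1 (stabilin-1), which takes up acetylated LDL and the secreted protein SPARC, measured 1726, 1498 and 1498 across the LPS libraries, 1663, 2686 and 2032 across the DHA libraries, and 1712, 1581 and 2234 across the cpdA libraries. DHA 2 was the highest Stab1 library, and DHA 1 and cpdA 1 and 2 lay within the LPS range. Its differences were 0.41 for DHA (SE 0.185, adjusted p = 0.359) and 0.21 for cpdA (SE 0.185, adjusted p = 0.624). With 7 libraries they were 0.38 (adjusted p = 0.237) and 0.03 (adjusted p = 0.980). The DHA difference was 0.23 without DHA 2, and the cpdA difference 0.07 without cpdA 3. In the annotation at hand Stab1 shares 112 exon bases with Nt5dc2 on the opposite strand, and with strand use not given those reads cannot be told apart.

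The C-type lectin receptors that signal through Syk differed from each other in their spread. Clec7a, the receptor for fungal beta-glucan, measured 16848, 17020 and 12151 across the LPS libraries, 11572, 15204 and 14545 across the DHA libraries, and 11461, 12912 and 14741 across the cpdA libraries. LPS 1 and 2 were the highest of the 9 and LPS 3 lay among the pretreated libraries. The limma differences were -0.15 for DHA (adjusted p = 0.735) and -0.23 for cpdA (adjusted p = 0.593). Over 7 libraries they were -0.31 (SE 0.121, limma adjusted p = 0.151) and -0.48 (SE 0.132, limma adjusted p = 0.125). Neither passed the threshold. Over all alternatives the adjusted p ran from 0.151 to 0.985 for DHA and from 0.125 to 0.992 for cpdA.

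Clec4e, the receptor for mycobacterial glycolipid and for a nuclear protein of dying cells, had the highest normalized count of the group in every library but LPS 3. There Cd68 was slightly higher (38110 against 37540). Clec4e measured 119442, 122477 and 37540 across the LPS libraries, 129012, 89958 and 123306 across the DHA libraries, and 126431, 125954 and 61071 across the cpdA libraries. Clec4e took between 0.124% and 0.419% of a library's reads. As with Olr1, LPS 3 and cpdA 3 were lowest, at -1.69 and -0.99 log2 units relative to the mean of LPS 1 and 2, and the groups overlapped. The limma differences over all libraries were 0.46 for DHA (SE 0.475, adjusted p = 0.678) and 0.27 for cpdA (SE 0.475, adjusted p = 0.829). Over 7 libraries they were -0.10 and 0.06, with an adjusted p of 0.731 and 0.942. Clec4d (MCL), the partner of Clec4e in a shared receptor complex and its neighbour on chromosome 6, measured 16246, 16675 and 11665 across the LPS libraries, 18732, 14856 and 18059 across the DHA libraries, and 17731, 18172 and 18488 across the cpdA libraries. In cpdA 3 the log2 difference from the mean of LPS 1 and 2 was thus 0.17 for Clec4d and -0.99 for Clec4e. Olr1 and Clec7a are likewise neighbours on chromosome 6, and in cpdA 3 they stood at -2.42 and -0.20 log2 units from that mean.

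**Figure D2:**
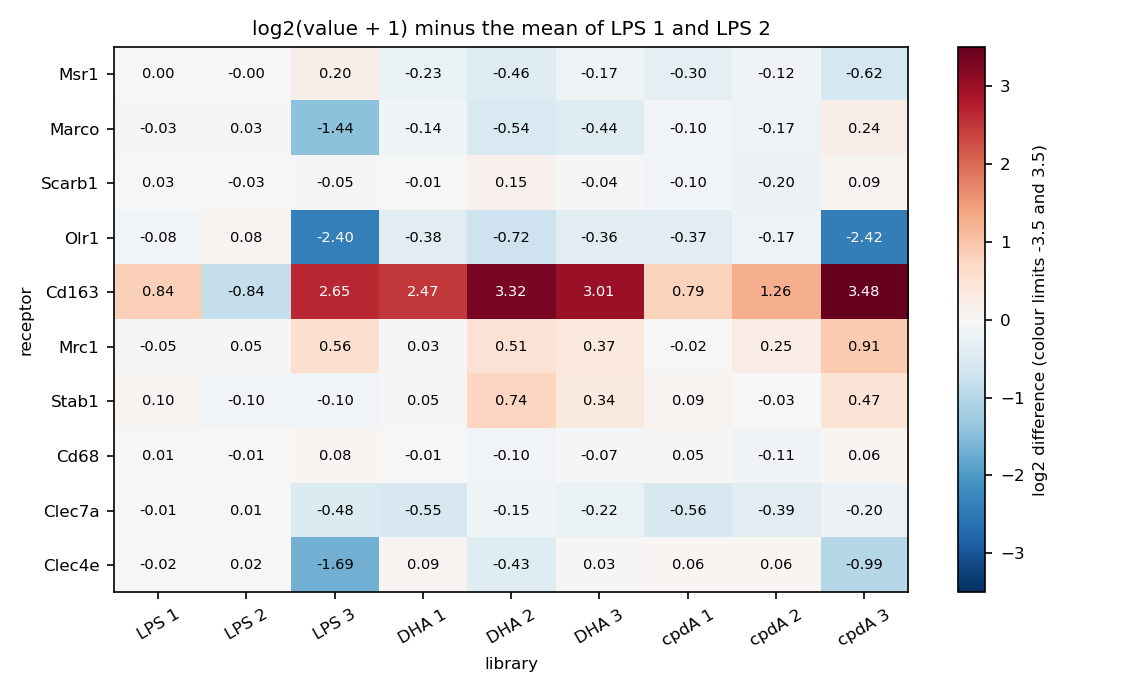
Log2(value + 1) of each receptor (rows) in each library (columns) minus the mean of LPS 1 and LPS 2, with the value in each cell, red above and blue below. Olr1 and Clec4e are low in both LPS 3 (-2.40 and -1.69) and cpdA 3 (-2.42 and -0.99), Marco is low in LPS 3 only (-1.44), and Cd68 stays near 0 in all 9.

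Promoters are shown for Olr1 and Clec4e, the members low together in LPS 3 and cpdA 3, beside that of Cd68, the steadiest member. Each window runs from 250 bases before to 50 after the start that RefSeq gives on GRCm38.p6, is read 5′ to 3′ on the gene's strand, and has motif matches on either strand in capitals. The windows are chr6:129507116-129507415 for Olr1, chr6:123289822-123290121 for Clec4e and chr11:69666121-69666420 for Cd68, all on the minus strand.
Olr1: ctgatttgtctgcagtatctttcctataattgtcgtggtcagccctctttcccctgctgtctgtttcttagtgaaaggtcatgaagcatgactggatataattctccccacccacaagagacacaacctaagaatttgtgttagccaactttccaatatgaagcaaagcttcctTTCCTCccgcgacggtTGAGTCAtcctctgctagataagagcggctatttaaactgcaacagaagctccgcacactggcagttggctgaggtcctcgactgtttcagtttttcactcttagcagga
Clec4e: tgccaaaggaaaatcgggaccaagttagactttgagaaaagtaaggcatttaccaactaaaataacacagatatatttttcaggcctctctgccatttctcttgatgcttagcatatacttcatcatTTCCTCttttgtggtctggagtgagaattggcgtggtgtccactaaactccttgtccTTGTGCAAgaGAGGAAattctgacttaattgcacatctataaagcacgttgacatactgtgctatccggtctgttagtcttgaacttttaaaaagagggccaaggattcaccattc
Cd68: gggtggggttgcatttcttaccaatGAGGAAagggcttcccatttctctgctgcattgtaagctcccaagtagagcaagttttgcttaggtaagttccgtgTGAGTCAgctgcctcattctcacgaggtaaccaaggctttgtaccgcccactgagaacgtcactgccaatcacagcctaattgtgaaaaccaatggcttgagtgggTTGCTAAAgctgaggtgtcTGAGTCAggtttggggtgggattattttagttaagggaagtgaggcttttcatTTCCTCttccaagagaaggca
The motifs searched were the core of PU.1, the factor that defines myeloid cells (GAGGAA), AP-1 (TGANTCA), C/EBP (TTGCNNAA) and NF-kB. The Olr1 window holds 1 PU.1 match and 1 AP-1 match, the Clec4e window 2 PU.1 matches and 1 C/EBP match, and the Cd68 window 2 PU.1, 2 AP-1 and 1 C/EBP match, none of them overlapping another. Among 32851 promoter windows of the same length 28.3% hold the PU.1 letters, 7.8% AP-1, 10.8% C/EBP and 4.5% NF-kB. Windows were found for 8 of the 10 members, and none of their 9 windows holds the NF-kB letters. A match in a window is a description, not a site.

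Levels of different receptors were compared per kilobase of exon, from GENCODE M21 rather than the authors' annotation. In LPS the mean normalized count per kilobase was 29213 for Cd68, 18762 for Clec4e, 5815 for Clec7a and 4245 for Msr1. It was 921 for Olr1, 897 for Marco, 523 for Mrc1, 153 for Stab1, 135 for Scarb1 and 0.757 for Cd163. Going down that order, Clec7a and Msr1, Olr1 and Marco, and Marco and Mrc1 had overlapping ranges over the LPS libraries, and the other neighbours did not overlap. The SD of log2 values over all 9 libraries ran from 0.07 for Cd68 through 0.25 for Msr1 and 0.493 for Marco to 0.624 for Clec4e, 0.963 for Olr1 and 1.45 for Cd163. Over the other 7 it was 0.06 for Cd68, 0.165 for Msr1, 0.212 for Marco, 0.18 for Clec4e, 0.258 for Olr1 and 0.216 for Mrc1. It was not lower for Cd163 (1.47), Clec7a (0.238 against 0.22 over all 9) or Scarb1 (0.107 against 0.102), and for Stab1 it was 0.286 against 0.287.

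Counted over the group, no receptor passed limma's adjusted threshold of 0.05 in any comparison with all 9 libraries. For DHA against LPS the log2 differences were positive for 7 members and negative for 3, with a median of 0.111 against -0.001 for all genes. None had an unadjusted p under 0.05, where 14.2% of all genes did, and 0.00720% of all genes passed the adjusted threshold. For cpdA against LPS 5 were positive and 5 negative, with a median of 0.081 against -0.004. Msr1 alone had an unadjusted p under 0.05 (0.0306), where 14.6% of all genes did, and again 0.00720% passed after adjustment. The comparisons of DHA and of cpdA with LPS share the LPS libraries, and so are not independent.

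The test of any difference between the 3 groups called 0 members, none at an unadjusted p under 0.05, against 0.00720% and 11.2% of all genes. On reads recovered from the values, edgeR's quasi-likelihood test and DESeq2 also called 0 members in every comparison, where DESeq2 gave Cd163 no adjusted p for DHA, for cpdA or for the 3 groups. At an unadjusted p under 0.05, both gave 2 members for DHA, 1 for cpdA, 0 for cpdA against DHA and 1 for the 3 groups. The shares of all genes at that threshold were 15.1%, 15.3%, 1.19% and 12.1% in edgeR and 15.5%, 15.6%, 1.04% and 13.9% in DESeq2. Over all genes edgeR called 0.0216% for DHA, 0.00720% for cpdA and 0.00720% for the 3 groups, and DESeq2 called 2.31%, 3.26% and 2.79% of the genes to which it gave an adjusted p.

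Between cpdA and DHA, given at different doses, no receptor passed the test. All 10 limma adjusted p-values were 0.9999, with 0 members and 1.02% of all genes at an unadjusted p under 0.05, and 0.00% of genes called by limma, by edgeR (0.00%) and by DESeq2 (0.00%). The log2 difference was positive for 3 members and negative for 7. The 95% intervals were narrow for Cd68 (-0.23 to 0.34), Scarb1 (-0.32 to 0.11) and Msr1 (-0.43 to 0.30). They were wide for Olr1 (-2.14 to 1.14) and Cd163 (-3.21 to 1.04), where large differences in either direction remain possible.

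**Figure D3:**
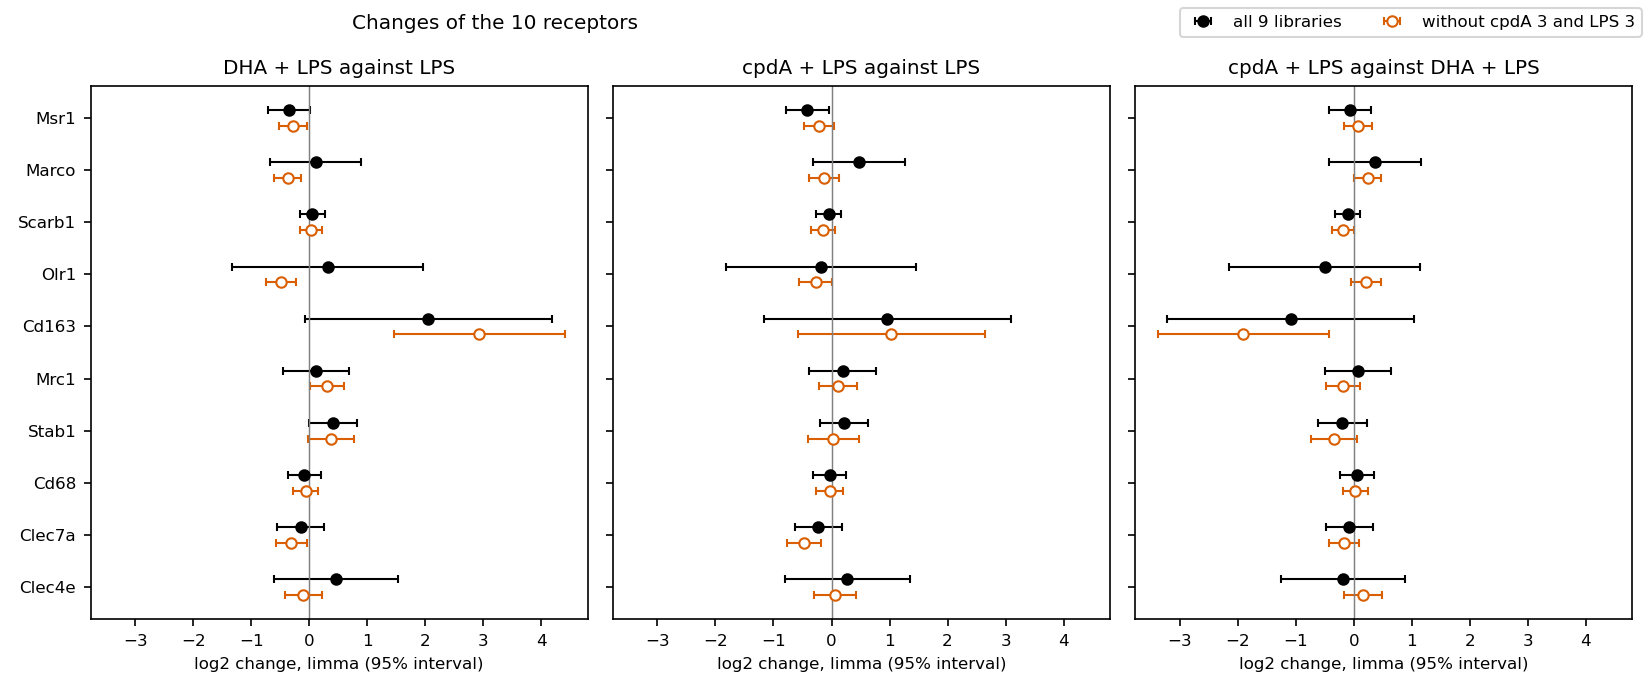
Log2 change (x axis) of each receptor with limma's 95% interval in 3 comparisons, over all 9 libraries (filled) and without cpdA 3 and LPS 3 (open). Most intervals are narrower without these libraries (that of Stab1 for cpdA is not), and for DHA against LPS Olr1 moves from 0.31 to -0.49 and Cd163 from 2.05 to 2.93.

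Without LPS 3 and cpdA 3, 2 of 10 members passed for DHA against LPS, Olr1 lower and Cd163 higher, where 6.79% of all genes passed. Cd163 met the filter on low values only with LPS 3 or cpdA 3 counted. At an unadjusted p under 0.05 there were 6 members, Msr1, Marco, Olr1 and Clec7a lower and Cd163 and Mrc1 higher, where 23.2% of all genes did. No member passed for cpdA against LPS (1.60% of all genes), for cpdA against DHA (0.00%) or for the 3 groups (3.27%). The log2 differences were positive for 4 members and negative for 6 for DHA, with a median of -0.081, and likewise 4 and 6 for cpdA, with a median of -0.083. This fit compares 2 LPS, 3 DHA and 2 cpdA libraries.

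Other uptake genes were read from 5 lists. Over all 9 libraries limma called none of the 15 other scavenger receptors, 18 other lectins, 21 apoptotic cell uptake genes, 14 Fc and complement receptors or 20 lectin signalling genes that were kept, in any comparison. For DHA their counts at an unadjusted p under 0.05 were 2, 2, 7, 3 and 3, and for cpdA 2, 2, 8, 3 and 5, where 14.2% and 14.6% of all genes were at that threshold. Median log2 differences for DHA ran from -0.065 for scavenger receptors to 0.170 for lectins, and for cpdA from -0.201 for apoptotic cell uptake to -0.027 for lectins. With 7 libraries the median for cpdA was 0.057 for scavenger receptors (-0.111 over all 9) and -0.09 for apoptotic cell uptake, and that for DHA was -0.096 for lectin signalling (0.046 over all 9).

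The members of each list with the largest log2 differences in either direction, named next, had limma adjusted p-values of 0.196 to 0.841 and so did not pass. Among scavenger receptors these were for DHA Scara3 (-0.93), Colec12 (-0.78), the apoptosis inhibitor Cd5l (0.91) and Cd93 (1.01), and for cpdA Scara3 (-0.80), Ssc5d (-0.74), the endocytic receptor Lrp1 (0.50) and Cd93 (0.61). Cd93 measured 1953, 1938 and 1898 across the LPS libraries, 2133, 6509 and 4209 across the DHA libraries, and 2138, 2170 and 5505 across the cpdA libraries. Every pretreated library was thus above every LPS library for Cd93, with DHA 2 and cpdA 3 the highest. Among all genes kept, 13.0% were higher without overlap for DHA and 10.7% for cpdA.

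Among lectins the largest differences for DHA were those of Clec9a (-1.21), the sialic acid receptor Siglec1 (-0.57), Clec10a (0.78) and Mgl2 (1.33), and for cpdA those of Clec9a (-1.90), Clec10a (-0.67), Ly75 (0.35) and Clec5a (0.39). Clec9a, a dendritic cell receptor for dead cells, and both galactose lectins Clec10a and Mgl2 were low, with at most 40.6 normalized counts in any library. For apoptotic cell uptake they were Timd4 (-1.04), Tyro3 (-0.80), Cd300a (1.20) and Gulp1 (1.5) for DHA, and Timd4 (-1.28), Axl (-0.66), Cd300a (1.07) and Gulp1 (1.46) for cpdA. Fc and complement receptors had Fcgr1 (-1.35), Fcgr4 (-1.28), the integrin Itgax (0.32) and the anaphylatoxin receptor C5ar1 (0.36) for DHA, and the same genes for cpdA at -1.64, -1.17, 0.17 and 0.24. The lectin signalling genes were Pik3cd (-0.87), Ptpn6 (-0.40), Nfatc1 (0.35) and the inositol phosphatase Inpp5d (0.86) for DHA, and Pik3cd (-0.80), Nfatc2 (-0.44), Nfatc1 (0.34) and Inpp5d (0.52) for cpdA.

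Further calls by limma came without LPS 3 and cpdA 3, where 6.79% of all genes were called for DHA and 1.60% for cpdA. For DHA, 1 of 21 apoptotic cell uptake genes was called higher and 2 lower. Called lower were 2 of 14 Fc and complement receptors and 3 of 20 lectin signalling genes. For cpdA these 3 lists had 1, 2 and 1 called lower. None of the 18 other lectins was called. Fcgr1, the high-affinity IgG receptor, measured 4598, 4159 and 10269 across the LPS libraries, 2388, 2108 and 2350 across the DHA libraries, and 2486, 2748 and 957 across the cpdA libraries. All pretreated Fcgr1 libraries lay below all LPS libraries, where 15.0% of genes kept were lower without overlap for DHA and 12.2% for cpdA. Over all 9 libraries its differences were -1.35 for DHA and -1.64 for cpdA, with a limma adjusted p of 0.268 and 0.224. In the fit of 7 libraries Fcgr1 fell by 0.94 for DHA (adjusted p = 0.000318) and by 0.74 for cpdA (adjusted p = 0.00452) in limma. Fcgr4, another activating IgG receptor, fell by 0.735 for DHA and 0.734 for cpdA, with a limma adjusted p of 0.00181 and 0.00657. Timd4, a phosphatidylserine receptor of resident peritoneal macrophages, fell by 1.39 and 0.98 (limma adjusted p = 0.00246 and 0.0492), and Pik3cd, a catalytic subunit of PI3-kinase, by 0.65 and 0.47 (0.00155 and 0.028). Called for DHA and not for cpdA were Axl, a receptor tyrosine kinase for apoptotic cells, at -0.41, the phosphatase Ptpn6 at -0.40, Vav1 at -0.29 and the engulfment adaptor Gulp1 at 2.00, with limma adjusted p-values from 0.0124 to 0.048. Gulp1 was of low count, at 6.5, 4.6 and 17.4 across the LPS libraries, 31.2, 20.3 and 24.5 across the DHA libraries, and 11.6, 18.9 and 63.4 across the cpdA libraries. Its difference thus rests on few reads. Whether the DHA and cpdA differences of all these called genes differ was tested directly, and none was called.

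**Figure D4:**
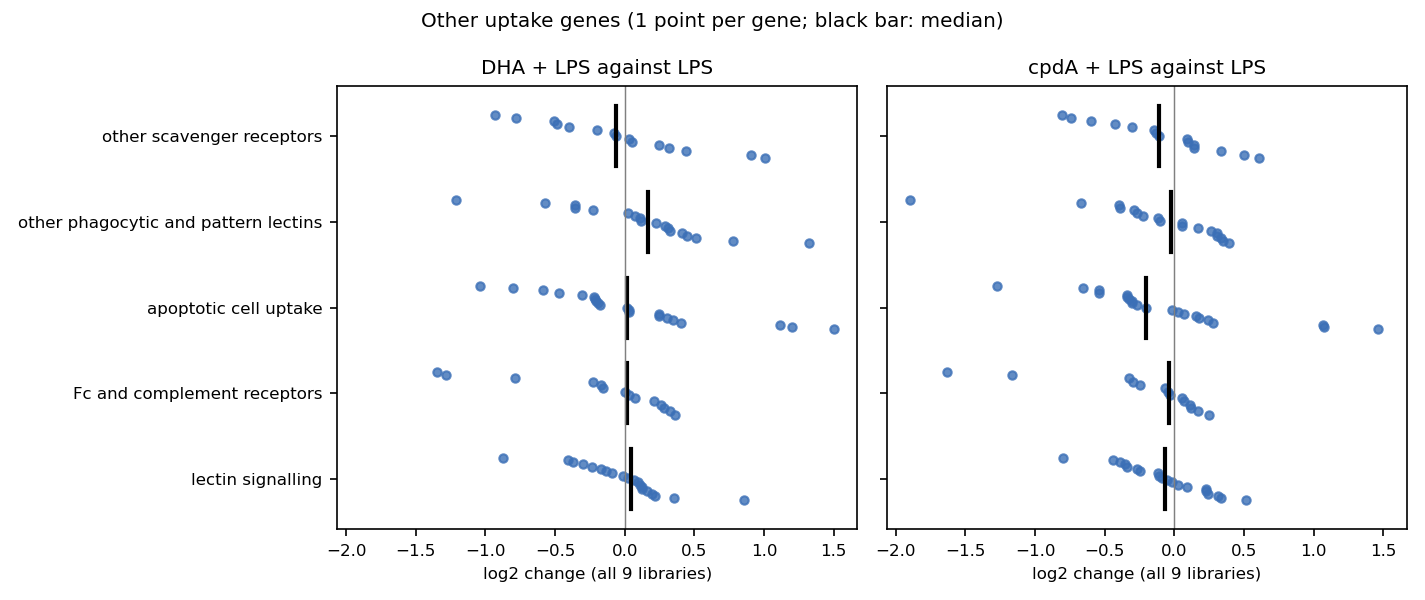
Log2 change (x axis) over all 9 libraries of the kept genes of 5 lists (rows), 1 point per gene, with the list's median as a black bar, for DHA and cpdA against LPS. Medians lie between -0.201 and 0.170, and no point passed limma's adjusted threshold.

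Genes whose pattern was most like that of a receptor were named for Msr1, Stab1 and Cd163, by the root mean square difference of centred log2 values over all 9 libraries. For Msr1 these were Nampt (0.033), the enzyme of NAD salvage, Sppl2a (0.05), an intramembrane protease of endosomes and lysosomes, and Tifa (0.05), an adaptor in NF-kB signalling. Nampt measured 30500, 30457 and 32484 across the LPS libraries, 25391, 21206.9 and 26616 across the DHA libraries, and 24324, 27962 and 19180.1 across the cpdA libraries. It too was lower in every pretreated library, but it was picked for its likeness to Msr1, so this is no separate result. For Stab1 they were 1110032A03Rik (0.07), the kinesin gene Kif3a (0.079) and the lysosomal transporter gene Slc17a5 (0.087). For Cd163 the closest were 1600010M07Rik (0.545), the lectin Mgl2 (0.629) and 2610019F03Rik (0.675), all of low count.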

How the data were processed

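RNA-seq libraries of mouse peritoneal macrophages were grouped by their titles into LPS, DHA + LPS and cpdA + LPS. The deposited values are signal values, read counts that the authors divided by 1 size factor for each library, as the values show: 100.0% of them were whole multiples of the worth of 1 read within 0.05. Per the submitters' processing notes, the tools were CASAVA 1.8.2, Bowtie2 and DESeq, with the build mm9. For the counting program, annotation, kit and strand use, the sources used here give nothing. Coordinates are therefore given only for promoter windows, on GRCm38.p6.

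Values were analysed as log2(value + 1), which understates differences of low genes, in limma 3.58.1 (R 4.3.3, statmod 1.5.0). All 9 libraries entered 1 fit of group means with trended, robust empirical Bayes moderation. P-values were adjusted by Benjamini-Hochberg across all 13895 genes kept, and a call is an adjusted p under 0.05. Depth ran from 13797079 to 37572822 recovered reads, and a count of 0 allows up to 3 reads, counting error only. As count tests, edgeR 4.0.16 (quasi-likelihood) and DESeq2 1.42.0 were run on recovered reads, with the other alternatives listed below. The script was tested on simulated data.

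The members, the lists of pathway and marker genes, and the fit without LPS 3 and cpdA 3 were chosen with earlier results of these data known. Text names all 10 members, and from each list the 2 kept genes with the largest differences in each direction and the genes called, except for a result that is not reported here. It names the 3 genes of most like pattern for the 3 members with the smallest p in the test of all groups, and a few markers and neighbours chosen after their values were seen. Same-number libraries of LPS and cpdA deviated together across genes (r = 0.387, 0.234 and 0.437), above 0.1 in every pair. The labels do not say what a number marks, and these values cannot settle whether the numbers pair the groups. The main fit used no pairing, and the replicate block among the alternatives covers DHA as well. The pairs of unlike number LPS 1 with cpdA 2 (0.264) and LPS 2 with cpdA 1 (0.292) also lay above the 0.234 of LPS 2 with cpdA 2. For LPS and DHA (0.14, -0.065 and 0.02) and for DHA and cpdA (0.407, -0.345 and 0.013) same-number libraries did not all lie above 0.1.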

Additional observations from a re-analysis of the deposited data

How the results depend on the processing

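The 30 log2 differences of the 10 receptors were recomputed under 20 alternatives: pseudocounts of 0.5 and 8, no filter, TMM and quantile scaling, plain moderation, fitting only the libraries compared, a replicate block, each library left out in turn, both LPS 3 and cpdA 3 left out, edgeR and DESeq2. Of 598 values with an adjusted p (DESeq2 gave none for Cd163 against LPS in either group), 561 kept their direction and side of the threshold, 36 had the opposite direction, in 18 of the 30 differences, and 1 was newly called (Cd163). Part of this agreement was fixed in advance. No filter, plain moderation, the replicate block and fitting only the libraries compared cannot change a log2 difference. Nor can leaving out a library of a group not compared. These settings can change only the p-values. Only Olr1, without LPS 3 and cpdA 3, was both opposite and called, so that the members called for DHA went from 0 to 2. Other settings called 0 members. With the replicate block 0 members were called in each comparison, and the limma adjusted p of Msr1 was 0.386 for DHA and 0.347 for cpdA. The block changed no call among the members, and over all genes it took the calls for DHA and for cpdA from 1 to 0, with 2075 and 2033 genes at an unadjusted p under 0.05.

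Without LPS 3 and cpdA 3 the opposite values for DHA were -0.37 for Marco, -0.49 for Olr1 and -0.10 for Clec4e. For cpdA there was -0.13 for Marco, and for cpdA against DHA 0.072 for Msr1, 0.22 for Olr1, -0.19 for Mrc1 and 0.16 for Clec4e. On counts for DHA, edgeR gave -0.016 for both Marco and Olr1, and DESeq2 gave -0.018 for Marco and -0.020 for Olr1. Quantile scaling gave 0.065 for Cd68 and 0.014 for Clec7a for DHA, 0.19 for Cd68 for cpdA, and 0.00039 for Msr1 for cpdA against DHA. Cause was not tested.

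With each library left out in turn, the DHA values that turned ran from -0.37 to 0.36 for Marco, -0.0036 to 0.090 for Scarb1, -0.49 to 0.76 for Olr1, -0.0020 to 0.30 for Mrc1 and -0.10 to 0.75 for Clec4e. Those for cpdA ran from -0.0081 to 0.73 for Marco, -0.13 to 0.014 for Scarb1, -0.99 to 0.53 for Olr1, -0.075 to 0.39 for Mrc1, -0.060 to 0.025 for Cd68 and -0.29 to 0.62 for Clec4e. For cpdA against DHA they ran from -0.18 to 0.072 for Msr1, -0.91 to 0.22 for Olr1, -0.19 to 0.28 for Mrc1, -0.20 to 0.012 for Clec7a and -0.36 to 0.16 for Clec4e.

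Over all genes kept, calls for DHA numbered 1 in limma, 3 in edgeR, 315 in DESeq2, 373 without cpdA 3, 943 without both, 3 with TMM, 9 with only the libraries compared and 2 without LPS 3. For cpdA they numbered 1 in limma and edgeR, 391 in DESeq2, 222 without both, 3 without cpdA 3 and 2 without DHA 2, and for the 3 groups 1 in limma, 380 in DESeq2, 57 without cpdA 3 and 455 without both. Depth limits Cd163 most, with at most 21 reads in a library.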
